A study of Saccharomyces cerevisiae with 9 samples.

Results

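The genes described here are the 7 genes through which Saccharomyces cerevisiae takes up iron bound to siderophores, the small iron chelators that microbes secrete. FIT1, FIT2 and FIT3 encode mannoproteins of the cell wall, and ARN1, ARN2, SIT1 and ENB1 encode the transporters. The members were chosen by name, and each was represented by 1 probe set among the 5498 that the platform annotation gives for single S. cerevisiae genes. All 7 were among the 5396 genes tested and lay above the background of every array. The cells were log-phase BY4741, a haploid laboratory strain of mating type a that lacks URA3, LEU2 and MET17, washed and resuspended in distilled water. The unfrozen group was sampled without freezing, the frozen 24 h and frozen 48 h groups were kept at -30 °C for those times and thawed for 10 min in a water bath, and all groups carried the same genotype. Each group had 3 arrays, numbered 1 to 3. The labels speak of independent triplicates and, in another place, of a pair of independent experiments, and nothing else shows how separate the cultures were. A limma p-value here therefore reflects variation among the 3 arrays of a group, some of which can be technical. That variation was estimated for each gene from all 3 groups together and drawn toward that of genes of similar signal.

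Budding yeast makes no siderophores of its own but uses those of other organisms. The FIT proteins are attached to the wall through a glycosylphosphatidylinositol anchor and help to hold iron-loaded siderophores close to the cell, and the ARN family moves them across the membrane, each transporter with its own range of ligands. Genes of both kinds are switched on by the iron-sensing activator Aft1 when iron is short, together with a reductive route made of cell surface reductases, the multicopper oxidase Fet3 and the permease Ftr1. The title of the series concerns copper homeostasis in freeze-thaw injury, and Fet3 is the copper-dependent step of the reductive route, whereas siderophore transporters need no copper.

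Signals are given as log2 intensity after the S. cerevisiae probe sets of every array had been brought to a common median, so that a step of 1 is a 2-fold change. The median deposited intensity of an array ranged from 201 to 726 and was highest in frozen 24 h replicate 3 (679) and frozen 48 h replicate 3 (726). Background, the 95th percentile of fission yeast probe sets, lay between 2.38 and 3.42 on the 9 arrays. URA3 was above it on 0 arrays, MET17 on 2 and LEU2 on 4, while the a-specific genes STE2, MFA1, BAR1 and ASG7 were above it on all 9. So was STE3, at 4.85 to 6.71, although it is a marker of the opposite mating type. The 17 ribosomal RNA control probe sets had median signals of 5.45, 6.78 and 7.02 in the unfrozen arrays and of 7.64 to 10.43 in the frozen ones. In all 7 genes the array labelled unfrozen replicate 3 lay within the range of the frozen arrays and above both other unfrozen ones. Whether its label is right could not be settled, and the differences from the unfrozen group include it, so the 7 genes are also given without it. With 3 arrays per group, their number limits precision.

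FIT2, the mannoprotein gene with the largest difference between groups, had signals of 8.90, 8.45 and 11.29 in unfrozen replicates 1, 2 and 3. In the frozen 24 h arrays it stood at 11.95, 10.68 and 9.51, and in the frozen 48 h arrays at 11.83, 10.97 and 9.25. The 6 frozen arrays were all above unfrozen replicates 1 and 2, but unfrozen replicate 3 was above 4 of the 6, so the groups overlapped. FIT3, the neighbouring gene in the RefSeq table, stood at 9.77, 9.73 and 11.40 unfrozen, at 11.54, 10.54 and 8.50 after 24 h and at 11.33, 10.52 and 8.43 after 48 h. In scaled signal the lowest FIT3 arrays of all were replicate 3 of the frozen groups, below every unfrozen array. In the deposited intensities they stood at 699 and 713, above the 487 of unfrozen replicate 2. FIT1, which lies elsewhere in the genome, had a similar order of arrays, with 5.39, 5.94 and 7.93 unfrozen, 8.36, 6.41 and 4.92 after 24 h, and 7.46, 6.52 and 4.78 after 48 h. For FIT1 too the lowest 2 arrays in scaled signal were replicate 3 of the frozen groups. Their deposited intensities of 58.3 and 56.6 were above the 46.7 and 35 of unfrozen replicates 1 and 2.

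SIT1, also called ARN3, encodes the transporter for ferrioxamine-type siderophores. Its signals were 7.85, 8.11 and 10.67 in unfrozen replicates 1, 2 and 3, then 11.09, 9.42 and 10.15 after 24 h and 10.68, 10.15 and 10.20 after 48 h. In the deposited intensities these were 257, 158 and 1560, then 1880, 462 and 2190, and 1410, 931 and 2430. All 6 frozen arrays were thus above unfrozen replicates 1 and 2 on both scales, and unfrozen replicate 3 lay within their range. Unlike FIT1 and FIT3, SIT1 did not drop in scaled signal in the replicate 3 frozen arrays below unfrozen replicates 1 and 2. In the deposited intensities FIT1 was not below them there either. FIT3 was below unfrozen replicate 1 but not below unfrozen replicate 2.

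ARN1, a transporter of ferrichrome-type siderophores, had 8.14, 8.21 and 10.30 unfrozen, 10.88, 8.67 and 8.26 after 24 h, and 10.29, 9.06 and 8.54 after 48 h. ARN2, a transporter of triacetylfusarinine C, had 7.89, 8.01 and 10.53 unfrozen, 11.03, 8.91 and 8.38 after 24 h, and 9.91, 9.17 and 9.06 after 48 h. ENB1, the enterobactin transporter, had 8.36, 8.65 and 10.26 unfrozen, 10.60, 9.29 and 9.18 after 24 h, and 10.67, 9.82 and 9.24 after 48 h. In these 3 genes every frozen array lay above unfrozen replicates 1 and 2, in some cases by very little. Unfrozen replicate 3 again lay among or above the frozen arrays, with 1 frozen array above it for ARN1 and ARN2 and 2 for ENB1. Replicate 1 was the highest array of its group in both frozen groups for all 7 genes, and replicate 3 the highest of the unfrozen group for all 7.

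**Figure D1:**
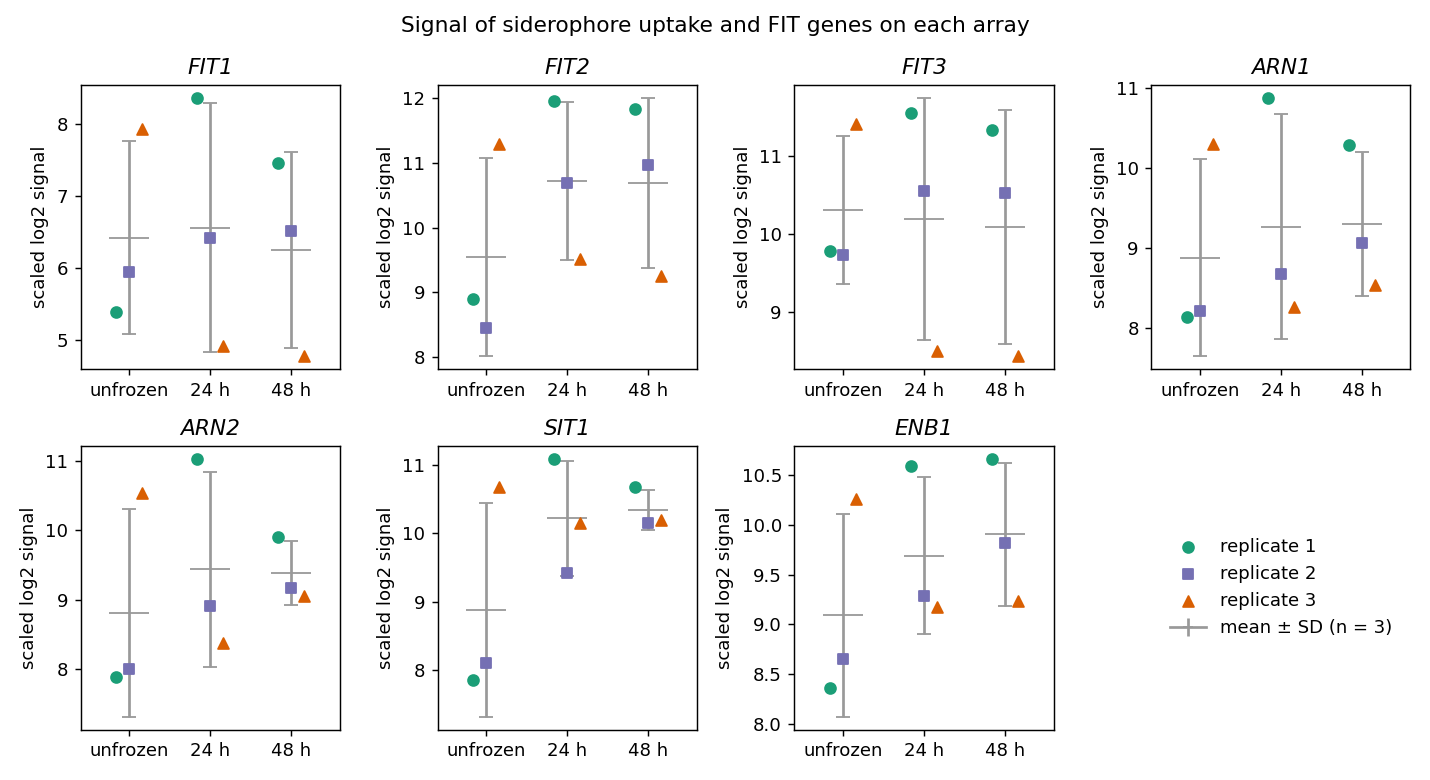
Scaled log2 signal (vertical axes, each with its own range) of the 7 genes in the unfrozen, 24 h and 48 h groups. Symbols are single arrays by replicate number and grey bars are means ± SD of 3 arrays. Unfrozen replicate 3 sits well above unfrozen replicates 1 and 2 in all 7 panels, from 1.64 for FIT3 to 2.69 for SIT1 above their mean.

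After 24 h frozen, none of the 7 genes passed the test, and none had groups that did not overlap. By limma 0 of 7 were called at an adjusted p under 0.05 and 0 of 7 at an unadjusted p under 0.05, where 1% and 10.7% of all genes tested were called. Of all genes 0.797% were called higher and 0.204% lower. Arrays of the 2 groups did not overlap for 23.9% of all genes, and for 12.2% the frozen arrays were the higher ones. The differences had a median of 0.60, against -0.02 for all genes tested. SIT1 had the largest at 1.34 ± 0.67 (SE, n = 3 arrays per group, 95% interval -0.14 to 2.82, adjusted p = 0.524). FIT2 followed at 1.17 ± 0.87 (-0.77 to 3.10, adjusted p = 0.714). ARN2 stood at 0.63 ± 0.77, ENB1 at 0.60 ± 0.55 and ARN1 at 0.38 ± 0.77, with adjusted p of 0.82, 0.776 and 0.896. FIT1 at 0.14 ± 0.95 and FIT3 at -0.11 ± 0.87 were closest to 0, and their intervals ran from -1.98 to 2.26 and from -2.04 to 1.83. Intervals of that width leave room for a 4-fold change in either direction or close to it, so the misses do not show that levels were equal. FIT1 turned to -0.18 when the common median was taken over every probe set on the array, and FIT3 to 0.19 in the values as deposited. On a bulk array, fewer cells with intact RNA and less transcript in each cell cannot be told apart.

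After 48 h the values were close to those at 24 h. Again 0 of 7 genes were called by limma, also at an unadjusted p under 0.05, where 2.91% and 16.4% of all genes were, and 0 of 7 had groups that did not overlap, against 22.5% of all genes (11.9% with the frozen arrays higher). Of all genes 2.09% were called higher and 0.815% lower. SIT1 stood at 1.46 ± 0.67 (SE, n = 3 per group, -0.02 to 2.94, adjusted p = 0.31), FIT2 at 1.14 ± 0.87 (adjusted p = 0.562) and ENB1 at 0.82 ± 0.55 (adjusted p = 0.513). ARN2 and ARN1 stood at 0.57 ± 0.77 and 0.41 ± 0.77, FIT1 at -0.16 ± 0.95 and FIT3 at -0.21 ± 0.87. The signs of FIT1 and FIT3 turned in the values as deposited, to 0.26 and 0.22. The 24 h and 48 h differences share the unfrozen arrays, so their likeness is not a second finding.

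The second day of freezing was compared directly as 48 h against 24 h. Limma called 0 of 7 genes and 0% of all genes, and 0 of 7 genes and 0.408% of all genes had an unadjusted p under 0.05. Arrays did not overlap for 0 of 7 genes and for 2.89% of all genes, 1.59% being higher at 48 h. Differences ran from -0.30 ± 0.95 for FIT1 to 0.22 ± 0.55 for ENB1, and the interval was narrowest for ENB1, from -1.01 to 1.45. Arrays of the same number deviated together in the frozen groups, and the differences within numbers were smaller for some genes. For FIT3 they were -0.21, -0.02 and -0.07 for numbers 1, 2 and 3. For FIT2 they were -0.12, 0.29 and -0.26. ARN2 varied most, at -1.12, 0.26 and 0.68. The blocked fit on the frozen arrays called none of the 7 either, with adjusted p from 0.953 to 0.983.

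**Figure D2:**
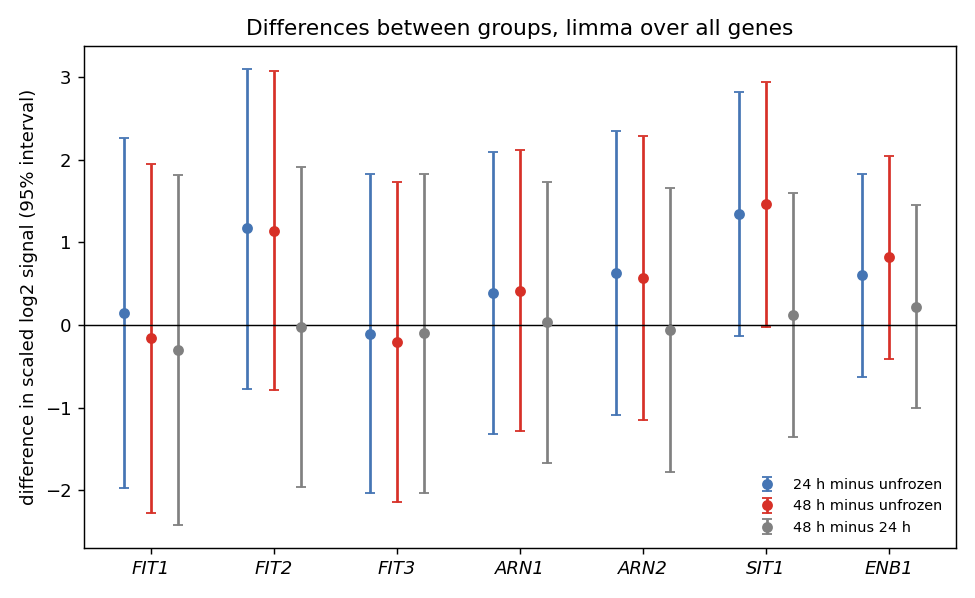
Difference in scaled log2 signal between groups (vertical axis) for the 7 genes, with 95% intervals from limma fitted over all 5396 genes and n = 3 arrays per group. All 21 intervals include 0. The intervals of SIT1 against unfrozen only just do, with lower ends of -0.14 at 24 h and -0.02 at 48 h.

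In scaled signal the groups overlapped through unfrozen replicate 3 alone for FIT2 and the 4 transporters, whereas FIT1 and FIT3 overlapped without it too. In that array all 7 genes were over 2-fold above the mean of unfrozen replicates 1 and 2. Over all genes tested this was so for 101 of 5396 (1.87%). The excess was 6.46-fold for SIT1, 6.15-fold for FIT2, 5.97-fold for ARN2, 4.83-fold for FIT1, 4.37-fold for ARN1, 3.36-fold for ENB1 and 3.12-fold for FIT3. In ribosomal RNA signal the array, at 7.02, was below all 6 frozen arrays, and its deposited median of 335 lay between the 201 and 392 of the other unfrozen ones. Unfrozen replicate 3 was singled out for being high in these 7 genes. Leaving it out therefore raises their differences, and the calls below are not an independent test. Without unfrozen replicate 3, limma called SIT1 alone among the 7, at 2.24 ± 0.42 after 24 h (adjusted p = 0.0382) and 2.36 ± 0.42 after 48 h (adjusted p = 0.0209). In that fit 1.24% and 2.06% of all genes were called higher. FIT2 stood at 2.04 ± 0.80 and 2.01 ± 0.80 there and did not pass (adjusted p = 0.377 and 0.279). Nor did ARN2 (1.49 ± 0.66 and 1.43 ± 0.66), ENB1 (1.18 ± 0.49 and 1.40 ± 0.49), ARN1 (1.09 ± 0.74 and 1.12 ± 0.74), FIT1 (0.90 ± 0.98 and 0.59 ± 0.98) or FIT3 (0.44 ± 0.95 and 0.34 ± 0.95), with adjusted p from 0.219 to 0.907.

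Arrays of the same number gave opposite directions. In scaled signal all 7 genes were higher frozen than unfrozen in replicates 1 and 2, at both times. In replicate 3 all 7 were lower in scaled signal. FIT2 differed by 3.06 and 2.23 after 24 h in replicates 1 and 2, and by -1.78 in replicate 3. FIT1 differed by 2.97, 0.47 and -3.02, ARN2 by 3.14, 0.90 and -2.15, and SIT1 by 3.24, 1.31 and -0.52. After 48 h the replicate 3 differences ran from -3.15 for FIT1 to -0.47 for SIT1. With replicates 1 and 2 averaged, this combination of signs was found for 25.8% of all genes at 24 h and 28.6% at 48 h. With both differences over 2-fold it was found for 6 of 7 genes at each time, all but SIT1 at 24 h and at 48 h, and for 0.334% of all genes. The numbers do not pair frozen with unfrozen arrays in the labels, so these are values of single arrays and not a test. The replicate 3 differences are taken from unfrozen replicate 3, the array already singled out as high in these 7 genes. The shares above therefore restate that array and are not separate evidence. For FIT2, ARN1, ARN2, SIT1 and ENB1 the frozen replicate 3 arrays were above unfrozen replicates 1 and 2 in scaled signal. In the deposited intensities SIT1 was higher frozen in replicate 3 too, at 2190 and 2430 against 1560 unfrozen. ENB1 was lower there at 24 h (1120 against 1170) but higher at 48 h (1250). The other genes kept their signs.

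**Figure D3:**
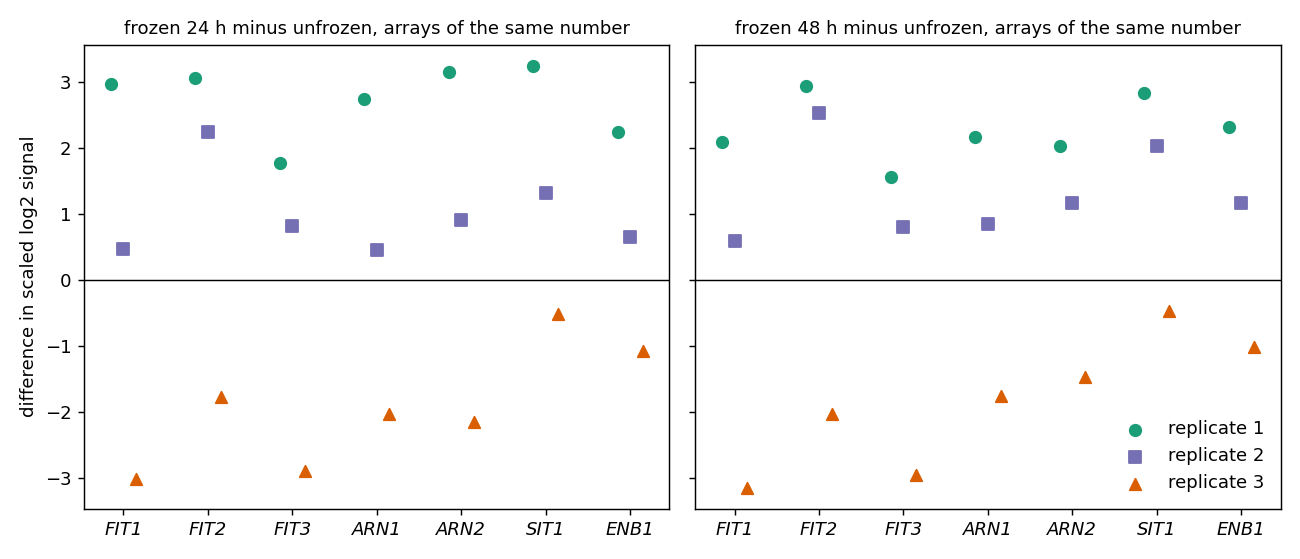
Frozen minus unfrozen scaled log2 signal (vertical axis) of arrays with the same replicate number, for the 7 genes, after 24 h (left) and 48 h (right). Each point is 1 array minus 1 array. Replicates 1 and 2 lie above 0 and replicate 3 below 0 for every gene, and SIT1 has the replicate 3 values nearest to 0, at -0.52 and -0.47.

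Replicate 3 of the frozen groups also held the brightest arrays, and its labels describe extraction and labelling more fully than those of replicates 1 and 2, apart from the extraction text of frozen 48 h replicate 2. Leaving out replicate 3 in each group, limma called FIT2 (2.64 ± 0.42 at 24 h and 2.73 ± 0.42 at 48 h, adjusted p = 0.0185 and 0.0103) and SIT1 (2.27 ± 0.46 and 2.43 ± 0.46, adjusted p = 0.0441 and 0.0218). That is 2 of 7, against 1.47% and 3.19% of all genes called higher in those fits, with 2 arrays per group. Those fits too leave out unfrozen replicate 3, singled out for being high in these genes. The remaining 5 stood between 1.17 and 2.02 with adjusted p from 0.058 for ENB1 at 48 h to 0.312 for ARN1 at 24 h. Leaving out replicate 1 in each group instead, all 7 values against unfrozen were lower than with all arrays, though not all below 0, and limma called 0 of 7. At 24 h FIT1 then stood at -1.27 ± 0.83, FIT3 at -1.05 ± 0.89, ARN1 at -0.80 ± 0.59, ARN2 at -0.63 ± 0.69 and ENB1 at -0.22 ± 0.47, with FIT2 at 0.22 ± 0.93 and SIT1 at 0.39 ± 0.71 (adjusted p from 0.699 to 0.95). At 48 h FIT1, FIT3, ARN1 and ARN2 stood at -1.28, -1.09, -0.46 and -0.16, and ENB1, FIT2 and SIT1 at 0.07, 0.24 and 0.78. In replicate 3 alone, with no replicate, the 7 differences ran from -3.02 to -0.52 at 24 h and from -3.15 to -0.47 at 48 h. A fit with replicate 3 as a batch term, which in this balanced design can alter the errors but not the differences, called none of the 7, with SIT1 at adjusted p = 0.344 and 0.208. The part of array brightness, ribosomal RNA signal and protocol in these values was not tested.

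The spread between arrays of one group was large for these genes. The within-group SD was 1.49 for FIT1, 1.36 for FIT2 and for FIT3, 1.21 for ARN2, 1.20 for ARN1, 1.04 for SIT1 and 0.85 for ENB1, on the log2 scale. The median over all genes tested was 0.30 and the 95th percentile 0.70. FIT1 ranked 14th from the top of 5396 genes and ENB1 ranked 123rd, and all 7 were above the 95th percentile. From the lowest to the highest of the 9 arrays FIT1 spanned 12.0-fold, FIT2 11.3-fold and SIT1 9.43-fold, and ENB1 spanned the least at 4.94-fold.

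**Figure D4:**
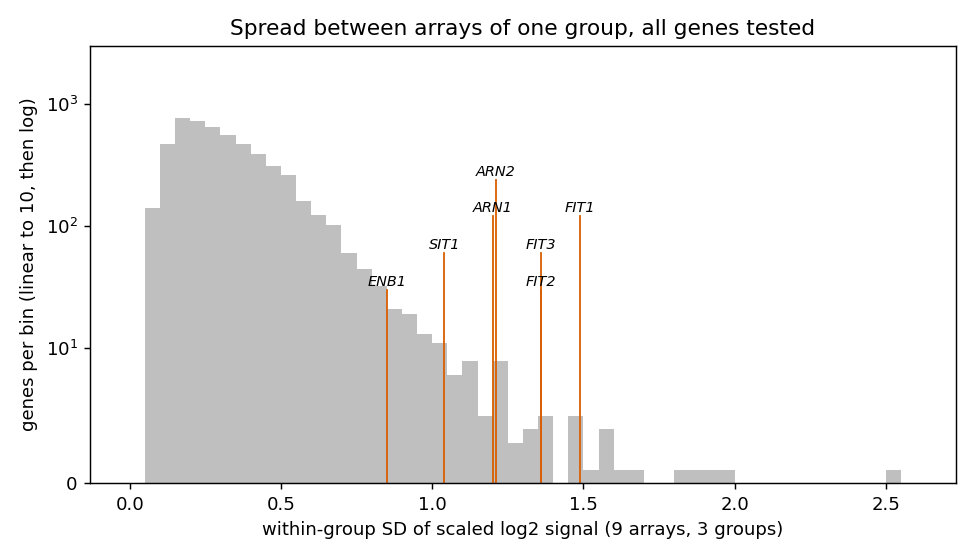
Number of genes (vertical axis, linear to 10 and logarithmic above) by within-group SD of scaled log2 signal (horizontal axis) for all 5396 genes, with vertical lines at the 7 genes. The lines run from 0.85 for ENB1 to 1.49 for FIT1, beyond the 95th percentile of 0.70. Line heights only separate the names.

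The 7 genes followed each other across the arrays, with SIT1 furthest from the FIT genes. Over the 9 arrays, which the genes share, Pearson's r was 0.97 between ARN1 and ARN2, 0.96 between FIT1 and FIT3, and 0.94 between FIT2 and ENB1 and between ARN1 and ENB1. It was lowest for SIT1 with FIT3 (0.38, Spearman's rho 0.53) and with FIT1 (0.54, rho 0.57). These are descriptions over arrays of 3 groups and carry no test.

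Ratios within an array cannot be altered by rescaling a whole array. Of 21 pairs compared at 24 h and at 48 h, 11 of the 42 ratios had frozen and unfrozen arrays that did not overlap. No such share was computed over other pairs of genes, and for single genes it was 23.9% at 24 h and 22.5% at 48 h. Each of the 11 had an exact two-sided permutation p of 0.1, the smallest that 3 arrays against 3 allow, and 0.382 after Benjamini-Hochberg adjustment over the 42, so none could pass. FIT2 relative to its neighbour FIT3 was -0.88, -1.28 and -0.10 in the unfrozen arrays, 0.41, 0.14 and 1.02 after 24 h, and 0.50, 0.45 and 0.82 after 48 h. All 6 frozen arrays were higher, a mean difference of 1.28 ± 0.43 at 24 h and 1.35 ± 0.37 at 48 h (SE from the compared groups alone, n = 3 per group). The mean difference of FIT1 relative to FIT2 was -1.03 ± 0.43 and -1.30 ± 0.31, again without overlap. SIT1 relative to ARN2 ranged from -0.04 to 0.15 unfrozen and from 0.77 to 1.14 after 48 h. The ratio of ARN1 to ARN2 overlapped between groups and lay between -0.52 and 0.39 on all 9 arrays.

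GEX1, a glutathione exchanger of the same transporter family, was read by a probe set that can also bind its near-identical copy GEX2, so the pair cannot be told apart. It stood at 0.42 ± 0.36 after 24 h and 0.34 ± 0.36 after 48 h (limma adjusted p = 0.762 and 0.674), with signals of 5.44 to 6.02 unfrozen and 5.55 to 6.83 frozen.

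By Pearson's r over the 9 arrays, among all genes tested and leaving out the 7, the closest to FIT2 were IRC7, a cysteine desulfhydrase gene, and THI4, of thiamine synthesis (0.98 for each). SIT1 was closest to the copper transporter gene CTR3 (0.98) and the glutathione peroxidase gene GPX2 (0.97). FIT1 was closest to YMR317W and ICS3 (0.98 each), and FIT3 to the mitochondrial import subunit gene TOM6 and RRT2 (0.97 each). ARN1 came closest to the RNA-binding protein gene YRA2 (0.97) and the mitochondrial carrier gene MTM1 (0.96), ARN2 to MTM1 (0.94) and SNO1 (0.93), and ENB1 to the sulfite response factor gene FZF1 (0.97) and the mRNA export gene THP1 (0.96). None of these 13 genes was called after freezing, and the nearest to it was GPX2 at 1.12 after 48 h (limma adjusted p = 0.226).

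The other genes under Aft1 and its regulators made a list of 30 genes that were all tested. An unadjusted limma p under 0.05 was reached by 7 of 30 at 24 h and 5 of 30 at 48 h, against 10.7% and 16.4% of all genes. Limma called 0 of 30 at 24 h and 1 of 30 at 48 h, the higher FRE4, against 1% and 2.91% of all genes, and the list medians of 0.11 and 0.14 stood against -0.02 and -0.03. These medians turned to -0.21 and -0.20 with the common median taken over every probe set, a setting in which all genes together had medians of -0.34 and -0.37. FRE4 encodes a reductase that frees iron from some siderophores, and so works beside the genes above. Its signals were 5.52, 5.28 and 6.04 unfrozen, 6.74, 6.63 and 6.95 after 24 h, and 7.19, 6.74 and 7.07 after 48 h. Every frozen array was above every unfrozen one, and FRE4 rose by 1.39 ± 0.24 at 48 h (adjusted p = 0.0142), with 1.16 ± 0.24 at 24 h (adjusted p = 0.0547). The 48 h call was lost without unfrozen replicate 1 (1.34, adjusted p = 0.0827) or unfrozen replicate 2 (1.22, adjusted p = 0.0761), without replicate 1 or 2 in each group (1.24 and 1.35, adjusted p = 0.184 and 0.342), and in the values as deposited (1.81, adjusted p = 0.255).

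HMX1, which encodes haem oxygenase, stood at 1.34 ± 0.32 and 1.28 ± 0.32 at 24 h and 48 h (adjusted p = 0.0972 and 0.0719), with arrays that did not overlap at either time. FRE1, the main surface reductase for iron and copper, stood at 1.89 ± 0.59 and 2.01 ± 0.59 (adjusted p = 0.228 and 0.119). LSO1, an iron-responsive small gene, read -0.03 and -0.04 in unfrozen replicates 1 and 2, below background, but 6.99 in unfrozen replicate 3 and 4.96 to 7.86 in the frozen arrays. With no measured level on those 2 arrays, no difference is given for it, and it was not called at 24 h (adjusted p = 0.389). CCC2, the copper pump that loads Fet3, stood at 0.88 ± 0.33 at 48 h (adjusted p = 0.222). Of the 30 genes, 5 shared the over 2-fold excess of unfrozen replicate 3, namely LSO1, FRE5, FRE1, TIS11 and CCC2, chosen after their values were seen, against 1.87% of all genes. The excess of FRE5 rests in part on a reading of 0.15 in unfrozen replicate 2, below the background of 3.38 there. Without unfrozen replicate 3, which was seen to be high in these genes, 4 of the 30 were called higher at each time, against 1.24% and 2.06% of all genes. They were FRE1, FRE4, HMX1 and LSO1, and for LSO1 both remaining unfrozen arrays were below background, so that its call has no measured size.

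The genes of the reductive route, oxidase and permease, had no call. Named after their values were seen, FET3 stood at 0.07 ± 0.40 and 0.28 ± 0.40 and FTR1 at -0.67 ± 0.28 and -0.49 ± 0.28 (limma adjusted p = 0.964, 0.768, 0.435 and 0.439). The activator gene AFT1 itself stood at 0.04 ± 0.17 and 0.14 ± 0.17 and its relative AFT2 at -0.12 ± 0.21 and -0.27 ± 0.21. The signals of AFT1 stayed between 6.58 and 6.91 on all 9 arrays. Between 24 h and 48 h limma called 0 of 30, and the smallest p was that of the copper chaperone gene ATX1 (-0.41 ± 0.30), followed by ISU2 (-0.24 ± 0.23), FRE4 (0.22 ± 0.24) and AFT2 (-0.15 ± 0.21).

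**Figure D5:**
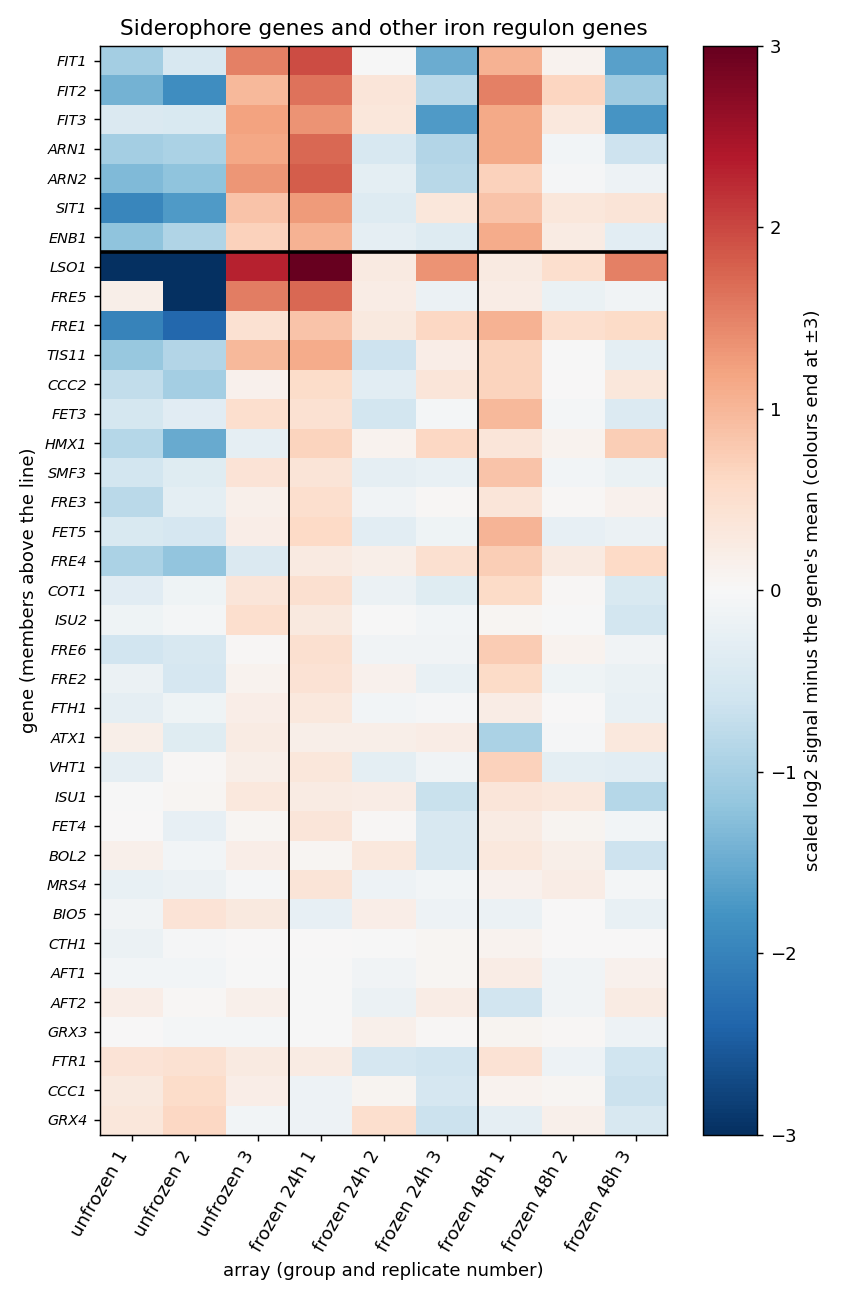
Scaled log2 signal of each gene on each of the 9 arrays minus that gene's mean, in colour (colours end at ±3), with the 7 genes above the line and the 30 other genes of the iron list below it, ordered by the excess of unfrozen replicate 3. The 7 genes are low in unfrozen replicates 1 and 2 and high in unfrozen replicate 3 and in replicate 1 of both frozen groups, and AFT1 and most genes near the bottom stay close to 0.

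Other cell wall mannoproteins were taken as a comparison for the FIT genes, in a list of 21 genes that were all measured. Their median was -0.48 at 24 h and -0.37 at 48 h, against 0.14, 1.17 and -0.11 for FIT1, FIT2 and FIT3 at 24 h. Limma called 0 of 21 at each time, against 1% and 2.91% of all genes, and 4 and 5 had an unadjusted p under 0.05, against 10.7% and 16.4% of all genes. The 48 h median turned to 0.06 on the deposited scale without any scaling, on which all genes had a median of 0.40, and was -0.09 under quantile normalization. The cold-shock mannoprotein gene TIR1 stood at -2.54 ± 0.78 and -3.18 ± 0.78 (limma adjusted p = 0.216 and 0.0648), with no overlap of arrays. Without unfrozen replicate 3 it was called at 48 h (-3.76 ± 0.82, limma adjusted p = 0.0491). For TIR1 that array, at 10.53, was below the 12.20 and 12.37 of unfrozen replicates 1 and 2. Leaving it out therefore enlarges the difference, and the call is not an independent test. The share of all genes called lower in that fit is not given. DAN1, of the anaerobic wall, stood at -3.66 ± 1.27 and -4.28 ± 1.27 (adjusted p = 0.292 and 0.122), with signals of 8.51 to 8.57 unfrozen and 2.15 to 8.28 after 24 h, the lowest below background. TIP1 stood at -1.81 ± 0.79 and -1.92 ± 0.79, TIR3 at -1.79 ± 0.72 at 48 h, and EGT2, a cell separation gene, at -0.64 ± 0.26 at 24 h. Not all wall genes fell, as 7 of the 21 differences were positive and 14 negative at each time. Among the positive ones at 48 h were PIR3 at 1.14 ± 0.60, SPI1 at 0.91 ± 0.55 and PST1 at 0.84 ± 0.40, none of them called. In TIR1 and TIP1 replicate 3 of each frozen group was the lowest array by scaled signal, as for FIT1 and FIT3. So it was in most of the 21 wall genes. In CCW12 these arrays read 12.32 and 12.22, but their deposited intensities of 9900 and 9860 lay within the range of the other arrays. Between 24 h and 48 h 0 of 21 were called, and EGT2 (0.43 ± 0.26), PST1 (0.61 ± 0.40), PIR3 (0.63 ± 0.60) and SPI1 (0.49 ± 0.55) had the smallest p.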

How the data were processed

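Poly(A)-enriched RNA of 9 samples was measured on 1-colour Affymetrix Yeast Genome 2.0 arrays. The authors deposited 1 linear intensity per probe set, made with GCOS per the submitters' processing notes, which name no version. The labels' per-chip and per-gene normalization is not seen in the deposited intensity values, whose array medians differ. Probe sets were named from the platform annotation, with current symbols from RefSeq (assembly R64), which served for names and neighbours alone. The files name no build, so no coordinates are given, and no sequences were used.

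Values were taken to log2 and scaled to 1 median over S. cerevisiae probe sets. Genes were kept if their mean passed 2.21 (4.64 linear), the 95th percentile of fission yeast probe sets, with the brightest probe set for each. Groups were compared with limma 3.58.1, under R 4.3.3, with all 9 arrays in 1 model of group means and a mean-variance trend. Tests were two-sided, with p-values adjusted by Benjamini-Hochberg over 5396 genes and a threshold of 0.05. The procedure was also run on simulated data whose noise was independent between arrays, so that run does not cover deviations that arrays share. Named are the 7 members, GEX1, in each list the genes called or the 4 with the smallest p, and for each member the 2 most correlated genes. Alternatives were other scalings, a pseudocount of 1.44, other filters, the replicate block, no trend, fits of the compared groups alone, mean probe sets and leaving out arrays or numbers. Replicate 3 as a batch and a block on the frozen arrays were added after seeing the data. Members and lists were chosen with earlier results of these data known.

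The labels do not say what a replicate number marks. In the data, same-numbered frozen arrays deviated together from their group means, with correlations of 0.59, 0.39 and 0.79. No 2 arrays shared more than 0.00915% of values.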

Additional observations from a re-analysis of the deposited data

How the results depend on the processing

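None of the 7 members was called in any of the alternatives that kept all arrays, and no change of sign was of a called value. Leaving out arrays moved the count of members called to 0 to 2 at 24 h and at 48 h, and it stayed 0 for 48 h against 24 h. The lowest member values against unfrozen came without replicate 1 in each group and the highest without replicate 3. Leaving out 1 array or 1 number in turn moved FIT1 from -1.27 to 1.72 at 24 h and from -1.28 to 1.33 at 48 h, FIT2 from 0.22 to 2.64 and from 0.24 to 2.73, and FIT3 from -1.05 to 1.29 and from -1.09 to 1.17. It moved ARN1 from -0.80 to 1.60 and from -0.46 to 1.5, ARN2 from -0.63 to 2.02 and from -0.16 to 1.59, SIT1 from 0.39 to 2.27 and from 0.78 to 2.43, and ENB1 from -0.22 to 1.43 and from 0.07 to 1.74. For 48 h against 24 h the ranges were -1.13 to 0.59 for FIT1, -0.63 to 0.69 for FIT2, -0.95 to 0.73 for FIT3, -0.47 to 0.83 for ARN1, -0.59 to 0.73 for ARN2, -0.28 to 0.56 for SIT1, -0.16 to 0.68 for ENB1, -0.35 to 0.28 for GEX1, -0.34 to 0.06 for AFT2 and -0.04 to 1.12 for SPI1. In the values as deposited the signs turned of FIT3 at 24 h (0.19), FIT1 and FIT3 at 48 h (0.26 and 0.22) and, for 48 h against 24 h, of FIT2 (0.10), FIT3 (0.03), ARN2 (0.07) and GEX1 (0.04). FIT1 turned to -0.18 at 24 h scaled to all probe sets, and ARN1 to -0.01 for 48 h against 24 h under quantile normalization.

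Of the 30 iron genes, the count called at 24 h was 2 as deposited, 1 with only the groups compared, 2 with the replicate block, 2 with replicate 3 as a batch and 0 to 4 leaving out arrays. At 48 h it was 2 as deposited, 2 scaled to all probe sets, 2 with the block, 2 with the batch and 0 to 4 leaving out arrays. Of the 21 wall genes, the count at 24 h was 2 as deposited, 2 with the block, 2 with the batch and 0 to 2 leaving out arrays. At 48 h it was 1 under quantile normalization, 3 as deposited, 2 scaled to all probe sets, 1 with only the groups compared, 3 with the block, 3 with the batch and 0 to 6 leaving out arrays. All these counts pool both directions. The wall gene under quantile normalization was the higher CRH1. Scaled to all probe sets, the iron genes were the higher FRE4 and the lower CCC1. Without replicate 3 the wall genes at 48 h were the higher PIR3, PST1 and SPI1 and the lower TIP1, TIR1 and TIR3. The share of all genes called is not given beside these counts, so none can be read as many or few. The replicate block called HMX1 and FRE4 at both times (adjusted p = 0.018 and 0.0227 at 24 h, 0.0149 and 0.00666 at 48 h), the lower TIR1 (0.00106 and 0.000497) and TIP1 (0.0308 and 0.0163) at both times, the lower DAN1 at 48 h (0.0351), and 0 of 7 members. In the labels frozen and unfrozen arrays share only a number, and their deviations correlated at -0.38, 0.25 and -0.12 for 24 h and -0.23, 0.13 and -0.07 for 48 h. The cause of these changes was not tested.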
